A study of Arabidopsis thaliana with 24 samples.

Results

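Of the 23059 rows in the Ler table, 270 (1.17%) had an identifier that joins the name of an Arabidopsis accession to a locus code, such as No_0_AT3G22231. They were chosen by the form of the identifier alone. The other 22789 rows had a plain locus code. Among the joined identifiers, 245 gave the accession name first. A further 23 gave the locus code first and an isoform number last (AT4G08390_Ler_0_iso1 is one), 1 was an intron variant and 1 gave its locus code more than once. They covered 264 locus codes and 18 accession names. The name was Ler_0, the accession of the plants, in 76 rows and another accession in 194 rows, with Bur_0 (19), Wil_2 (18), Hi_0 (15) and Rsch_4 (15) the most frequent of these. The name Col_0 stood in 10 rows.

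The plants were tetraploid (4x) or diploid (2x) Arabidopsis thaliana seedlings 2 weeks old, of the ecotype Ler, in which the joined identifiers occur, or of Col-0, with which they are compared. Poly(A) RNA was sequenced from 2 libraries for each ecotype and ploidy. The labels name no mutation, transgene or treatment, and do not say how the tetraploids were made, from how many lines, or which of the study's 2 day lengths these seedlings had. The study set tetraploid against diploid plants in each ecotype. Differences between tetraploid and diploid plants are called ploidy changes below, and cannot be told apart from differences between plant lines. The direction of the deposited fold changes is not stated in the tables; it was read as tetraploid over diploid from genes of known behaviour in Col-0 and carried over to Ler because both tables are named alike, and every direction below depends on it. Each ± on a log2 fold change is the authors' standard error, a row is called where the authors' adjusted p is under 0.05, and a mean count is the authors' normalised count averaged over the 4 libraries of a table.

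As background, the letters and digits of an Arabidopsis locus code name the chromosome and the order of the gene along it in the Col-0 reference genome. Other accessions carry deletions, duplications and diverged alleles of these genes, most often in families of immune receptors, receptor-like kinases and F-box proteins. An annotation made for several accessions can therefore hold transcript models that were built in one accession and named for the reference locus they resemble. The labels and file headers do not say where the joined identifiers of the Ler table were taken from. Whether a low count reflects fewer cells with the transcript, less RNA per cell or a model that took few reads cannot be told apart in these data.

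The 4 Ler libraries averaged 22138532 normalised reads and the 4 Col-0 libraries 22343366, with size factors of 0.92 to 1.08 in Ler and 0.915 to 1.14 in Col-0. The authors' deposited tables gave the leaf genes RBCS1A, LHCB1.2 and PSBO1 mean counts of 67643 to 619046 in Ler and 65663 to 570856 in Col-0. The seed storage genes OLEO1 and CRA1 had 2.48 and 0.993 in Ler, against 5.63 and 7.89 in Col-0. Whole reads per library could be solved from the mean for the 263 joined identifiers with a mean count up to 2200, and libraries are called a and b within a ploidy because their replicate numbers cannot be assigned. Reads are given below in the order a, b.

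The joined identifiers were thinly covered. Their median mean count was 15.3, against 195 for the plain rows, and 55.9% of them reached a mean count of 10, against 79.5% of the plain rows. At a mean count of 100 the shares were 32.2% and 60.5%. A single read over all 4 libraries was behind 27 of the joined identifiers and 2 to 9 reads were behind another 58, so that 85 of 270 had under 10 reads. Together they held 0.528% of all normalised reads in Ler, and 0.323% without Ws_0_AT5G17920. The form of the name went with the level. The 23 rows with an isoform number had a median mean count of 273, the 53 rows with Ler_0 in front 28.3, and the 194 rows named for another accession 11.1. Medians by accession ran from 1.77 for the 10 rows of Oy_0 to 162 for the 10 rows of Kn_0.

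The gene types were those of the rest of the table. In the RefSeq gene annotation, 253 of the 263 matched loci were protein-coding (95.8% of all 264, against 96.6% of the plain Ler loci) and 10 were pseudogenes, 2 of them transcribed. A gene symbol was listed for 88 loci (33.3%, against 41.1% of plain rows). The rows were spread over the 5 chromosomes, from 0.954% of the rows of chromosome 1 to 1.64% of those of chromosome 4, and 6 loci lay next to another one in gene order. Genes listed as receptor kinases or leucine-rich repeat proteins by keyword in their names made up 7 loci (2.65%, against 0.856% of plain rows). None of the 43 listed genes for nucleotide-binding immune receptors, defence, glucosinolates, leaf or seed was among the joined identifiers. In Ler the authors' deposited table called 1 of 20 tested receptor genes, 4 of 4 defence genes and 1 of 6 glucosinolate genes, all higher in the tetraploid, and none of 3 leaf genes, while the seed genes had no adjusted p. These lists are partial, with 27 receptor loci and 7 glucosinolate loci. Unlisted genes of these kinds can be joined identifiers, as is NSP1, a gene of glucosinolate breakdown described below.

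A Col-0 row with the same locus code existed for 244 of the 270 (238 loci), and the levels of the 2 rows are set side by side without a test because the tables were normalised separately. Most of the gap was downward. Of the 215 pairs that reached a mean count of 10 in either table, 91 (42.3%) lay within 2-fold of each other, against 90% of 18567 plain pairs. The joined row was more than 4-fold lower than the Col-0 row in 95 pairs (44.2%, against 2.98% of plain pairs) and more than 10-fold lower in 75 (34.9%, against 1.5%). It was more than 4-fold higher in 4 pairs (1.86%, against 0.851%). Within 2-fold were 53.3% of the 60 pairs named Ler_0 and 38.1% of the 155 named for another accession. Summing all Ler rows of a locus left 43.5% of 209 loci within 2-fold and 40.7% more than 4-fold lower.

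**Figure D1:**
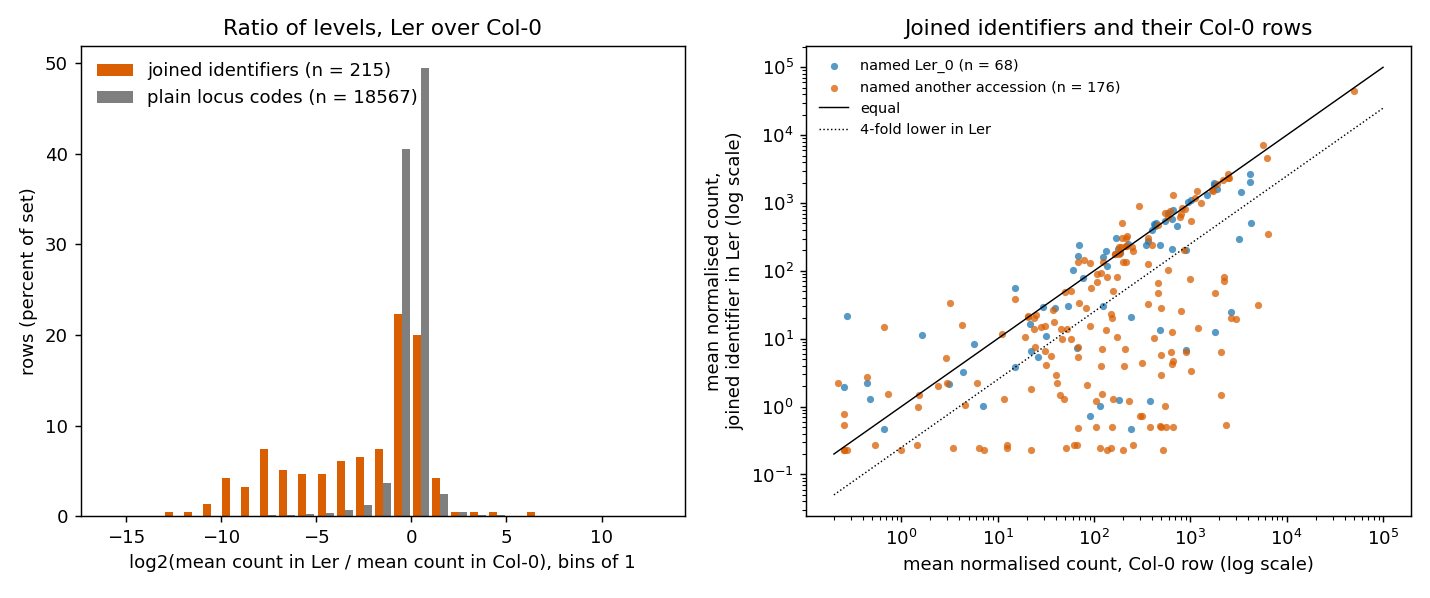
Left, percent of joined identifiers (orange) and of plain rows (grey) by the log2 ratio of the Ler to the Col-0 mean count, for pairs that reached a mean count of 10 in either table. Right, mean count of each of the 244 paired joined identifiers in Ler against that of the same locus code in Col-0, both on log scales, for rows named Ler_0 (blue) and another accession (orange), where many points lie near the line of equality and 102 of the 244 lie more than 4-fold below it.

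The joined identifiers that held their Col-0 level included some of the most read genes of the set, in reads per gene and not per length. In the authors' deposited tables Ws_0_AT5G17920, which is ATMS1, the cobalamin-independent methionine synthase, had a mean count of 45500 in Ler and 50424 in Col-0. The glutathione transferase GSTF8 (Wil_2) had 4665 in Ler and 6307 in Col-0 there, and PEX14 (Wu_0), a docking protein of peroxisomal import, 2342 and 2465. The genes that follow were chosen after their values were seen. The cryptochrome CRY3 (Can_0) had 1971 and 1596 reads in tetraploid and 2027 and 1994 in diploid Ler, and 2077 and 1866 in tetraploid and 2043 and 1554 in diploid Col-0. The exocyst subunit SEC10 (Ws_0) had 1712 and 1497 in tetraploid and 1524 and 1508 in diploid Ler, and 1649 and 1548 in tetraploid and 2023 and 1624 in diploid Col-0. All 8 libraries of CRY3 and SEC10 gave reads of one order of size, which follows from their choice as genes that held their Col-0 level. In the authors' deposited tables the histone deacetylase HDA9 (Ler_0) had a mean count of 466 in Ler and 426 in Col-0, the TATA-binding protein TBP2 (Ler_0, isoform form) 468 and 433, and CKA2 (Ler_0, isoform form), a catalytic subunit of casein kinase 2, 1117 and 1021.

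At the other end stood genes that were well covered in Col-0 and had next to no reads under the joined identifier. Of 150 pairs with a Col-0 mean count of at least 100, 26 (17.3%) had under 10 reads in all 4 Ler libraries together, against 42 of 13951 plain pairs (0.301%). For 19 of the 26 the Ler table held no other row of that locus. The share was 4 of 43 (9.3%) where the name was Ler_0 and 22 of 107 (20.6%) where it was another accession. The genes named here were picked for their known roles after their values were seen. CNGC12, a cyclic nucleotide-gated channel linked to immunity, had 0 and 2 reads in tetraploid and 0 and 0 in diploid Ler under Can_0, and a Col-0 mean count of 2358 in the authors' deposited table. That mean spans both ploidies, and the authors' test called CNGC12 lower in tetraploid Col-0 (−2.89 ± 0.10, adjusted p = 1.68e-172). TOE2, an AP2-type repressor of flowering, had 1 and 0 reads in tetraploid and 0 and 1 in diploid Ler under Oy_0, against 749 and 721 in tetraploid and 701 and 490 in diploid Col-0. STI, which sets trichome branching, had 1 and 0 in tetraploid and 2 and 2 in diploid Ler under Ler_0, against 373 and 356 in tetraploid and 431 and 379 in diploid Col-0. None of these 3 loci had another row in Ler, so the Ler table gives no level for the gene beyond these reads. Not far above lay GHR1, a receptor-like kinase of guard cells, with 6 and 12 reads in tetraploid and 3 and 4 in diploid Ler (Sf_2), against 639 and 668 in tetraploid and 637 and 546 in diploid Col-0. KINESIN-13A, a microtubule motor family member, had 55 and 30 in tetraploid and 57 and 51 in diploid Ler (Ct_1), against 1781 and 1667 in tetraploid and 2023 and 1794 in diploid Col-0.

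The joined row was above its Col-0 row in 56 of the 215 pairs, and by more than 2-fold in 13 (6.05%). The examples given here were chosen after their values were seen. COAB (Hi_0), an enzyme of coenzyme A synthesis, had 897 and 838 reads in tetraploid and 998 and 963 in diploid Ler, against 272 and 273 in tetraploid and 360 and 291 in diploid Col-0. Its Ler mean count in the authors' deposited table was 919, and its Col-0 mean count 297. Ler_0_AT3G30805 had 18 and 19 reads in tetraploid and 33 and 17 in diploid Ler, against a single read in 1 tetraploid Col-0 library. Both genes were above Col-0 in every library.

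The Col-0 table listed 23025 nuclear loci, and 1664 of them had no plain row in Ler. A joined identifier stood for 212 of these (12.7%), and for 128 of the 433 with a Col-0 mean count of at least 100 (29.6%). Conversely, 24 joined identifiers had neither a plain Ler row nor a Col-0 row. The most read of those without a Col-0 row were AT5G20750_Ler_0_iso1, Kn_0_AT3G31990 and Ct_1_AT4G04635, with mean counts of 708, 97.7 and 61.8 in the authors' deposited Ler table, all annotated as pseudogenes.

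For 28 loci (30 joined identifiers) reads were divided between a joined and a plain row. The joined row held the larger mean in 14 and the plain row in 14, and the median joined share was 43.7%. More than 90% of the counts were in the joined row for 5 loci and less than 10% for 7. At AT3G24750 the row named Bur_0 held 95.9% of the counts, with 703 and 636 reads in tetraploid and 324 and 382 in diploid Ler, and the plain row had 31 and 31 in tetraploid and 10 and 14 in diploid Ler. At AT5G42530 the row named Kn_0 held 2.66%, with 45 and 56 reads in tetraploid and 10 and 10 in diploid Ler, beside 1859 and 1890 in tetraploid and 289 and 398 in diploid Ler in the plain row. At AT4G04402 the counts were nearly even, with 134 and 99 reads in tetraploid and 210 and 149 in diploid Ler in the joined row (50.2%) and 117 and 110 in tetraploid and 233 and 127 in diploid Ler in the plain row. How the authors' counting assigned reads that could fall in both rows was not stated in the labels or headers, so these divided values are uncertain.

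Adding the rows did not always bring a locus near its Col-0 level. XIK, a class XI myosin, had a mean count of 19.8 under Sf_2 and 0.272 in its plain row in the authors' deposited Ler table, against 2981 in the Col-0 table. Oy_0_AT1G77800 had 20.2 and its plain row 3.21 in the authors' deposited Ler table, against 2642 in Col-0. MAP65-5, a microtubule-bundling protein, was closer, with 68.7 under Sf_2 and 7.95 in the plain row in the authors' deposited Ler table, against 108 in Col-0. A further 6 loci had 2 joined identifiers. PUB12, a U-box ubiquitin ligase, had mean counts of 130 under Bur_0 and 15.4 under Hi_0 in the authors' deposited Ler table, and 90.05 in Col-0. At AT1G61190 the rows Wu_0 and Sf_2 had 6.31 and 1.5 in the authors' deposited Ler table, against 2068 in Col-0.

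**Figure D2:**
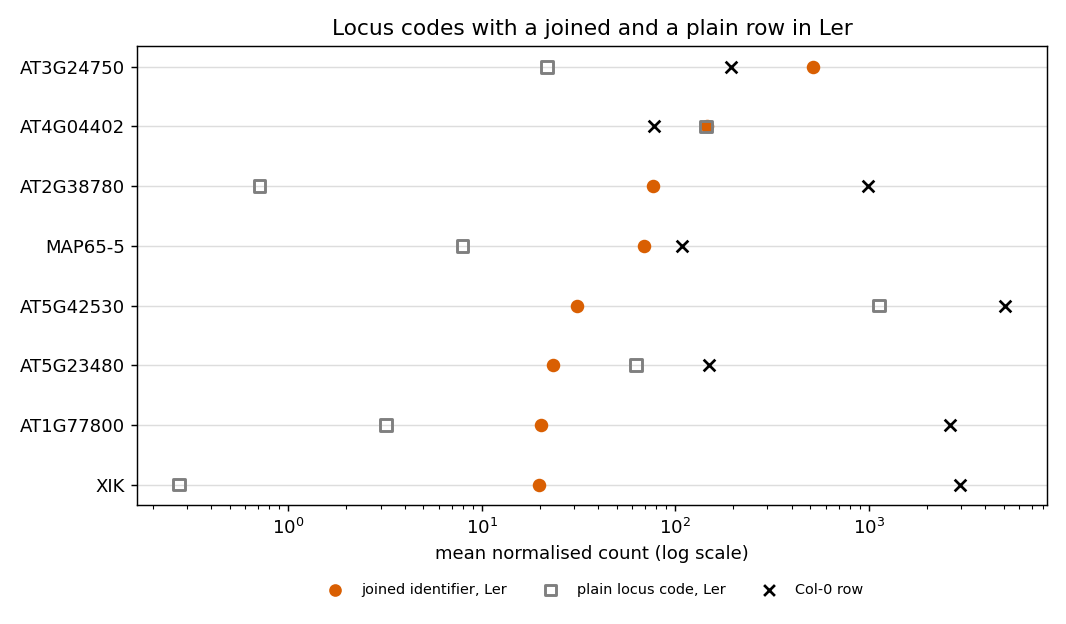
Mean normalised count, on a log scale, of the joined identifier (orange circle) and the plain row (open grey square) in Ler and of the Col-0 row (cross) for 8 loci with rows of both forms. The joined row is the larger one at 6 of them, among them AT3G24750, and the plain row at AT5G42530 and AT5G23480.

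Few of the joined identifiers differed between tetraploid and diploid Ler. Of the 157 with an adjusted p in the authors' deposited Ler table, 10 were called (6.37%), against 5.1% of all 18683 tested rows, so the share was close to that of the table. Higher in the tetraploid were 6 (3.82%, against 3.19% of all tested rows) and lower were 4 (2.55%, against 1.91%). A name of Ler_0 stood in 5 of the 10, out of 53 tested rows with that name, and another accession in 5, out of 104. Whether these shares differ was not tested. The other 113 joined identifiers had no adjusted p in the authors' deposited table, whose lowest mean count with one was 7.23. The median log2 fold change of the 157 was −0.08 and that of all tested rows −0.01, with 56 above 0 and 101 below. The tetraploid and diploid libraries did not overlap in 79 of the 150 tested identifiers with solved reads (52.7%, against 54.3% of all such rows). Of the 87 that reached a mean count of 100, 79 were not called. These 79 had log2 fold changes from −0.73 to 0.39, within 0.5 of 0 in 75. With the statistics divided by their robust spread over all rows (an empirical null) 6 calls were left, and limma on the solved reads without diploid library b gave 30, of which 21 were lower, when 16.9% of all rows were called. Nothing in the labels says that the libraries came from separate cultures, so the p-values rest on a spread among libraries that may be technical only.

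PCC1, a small membrane protein induced by pathogens and by the clock, had the smallest adjusted p of the 10. Under No_0_AT3G22231 it had 795 and 504 reads in tetraploid Ler and 42 and 50 in diploid Ler. The authors' deposited table gave a log2 fold change of 3.91 ± 0.24 (15.02-fold, adjusted p = 2.98e-53). No plain PCC1 row stood in the Ler table. In the authors' deposited Col-0 table PCC1 had a mean count of 6442, against 354 in Ler, and an uncalled change of 0.59 ± 0.42 (adjusted p = 0.444). Within Ler, both diploid libraries lay far below both tetraploid ones. Both Ler groups were low beside Col-0 under this identifier. Group means were 665 in tetraploid and 44.3 in diploid Ler, against 7751 in tetraploid and 5132 in diploid Col-0.

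The other 5 that rose ranged widely in level. The pseudogene AT4G04635 (Ct_1) had 116 and 111 reads in tetraploid and 6 and 7 in diploid Ler, with 4.23 ± 0.53 in the authors' deposited table (adjusted p = 5.92e-13). AT5G42530 (Kn_0) had the reads given above and 2.45 ± 0.58 (adjusted p = 0.00143), and its plain row was called too, at 2.55 ± 0.28 (adjusted p = 8.15e-17), both in the authors' deposited table. AT3G24750 (Bur_0) had, per the authors' deposited table, a rise of 1.02 ± 0.16 (adjusted p = 2.95e-08), while its plain row gave 1.47 ± 0.65 (adjusted p = 0.204). These 3 had tetraploid libraries well above both diploid ones. AT4G11900 (Ler_0, isoform form) had 272 and 207 reads in tetraploid and 160 and 154 in diploid Ler, with 0.71 ± 0.22 in the authors' deposited table (adjusted p = 0.0346). NSP1, the nitrile-specifier protein that directs glucosinolate breakdown to nitriles, had 1653 and 1647 in tetraploid and 1108 and 1408 in diploid Ler under Ler_0, with 0.49 ± 0.14 in the authors' deposited table (adjusted p = 0.0122). NSP1 was also called in Col-0, at 0.38 ± 0.10 (adjusted p = 0.00148) in the authors' deposited table. The calls of AT4G11900 and NSP1 were the weakest of the 6 and were lost when tetraploid library a was left out, with adjusted p of 0.128 and 0.0573 in limma on the solved reads; NSP1 also lost it without tetraploid library b (0.181) or diploid library a (0.164).

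The 4 that fell did so by less than 2-fold. SAPX, the stromal ascorbate peroxidase of chloroplasts, had 199 and 213 reads in tetraploid and 408 and 357 in diploid Ler (isoform form), with −0.78 ± 0.19 in the authors' deposited table (adjusted p = 0.00202). AT2G27420 (Ler_0) had 1549 and 1440 in tetraploid and 2992 and 2213 in diploid Ler, with −0.69 ± 0.12 in the authors' deposited table (adjusted p = 8.30e-07). All 4 that fell were lower in each tetraploid library than in either diploid one. The pseudogene AT5G20750 (Ler_0, isoform form) had 590 and 483 reads in tetraploid and 1091 and 718 in diploid Ler, with −0.65 ± 0.17 in the authors' deposited table (adjusted p = 0.00395). RIK, a KH-domain RNA-binding protein, had 473 and 366 in tetraploid and 746 and 589 in diploid Ler under Can_0, with −0.57 ± 0.16 in the authors' deposited table (adjusted p = 0.0106). A second RIK row, under Ct_1, had 5 and 1 reads in tetraploid and 6 and 2 in diploid Ler. The calls of AT5G20750 and RIK were lost without tetraploid library b (limma adjusted p = 0.118 and 0.121), and that of AT5G20750 also without diploid library a (0.069).

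**Figure D3:**
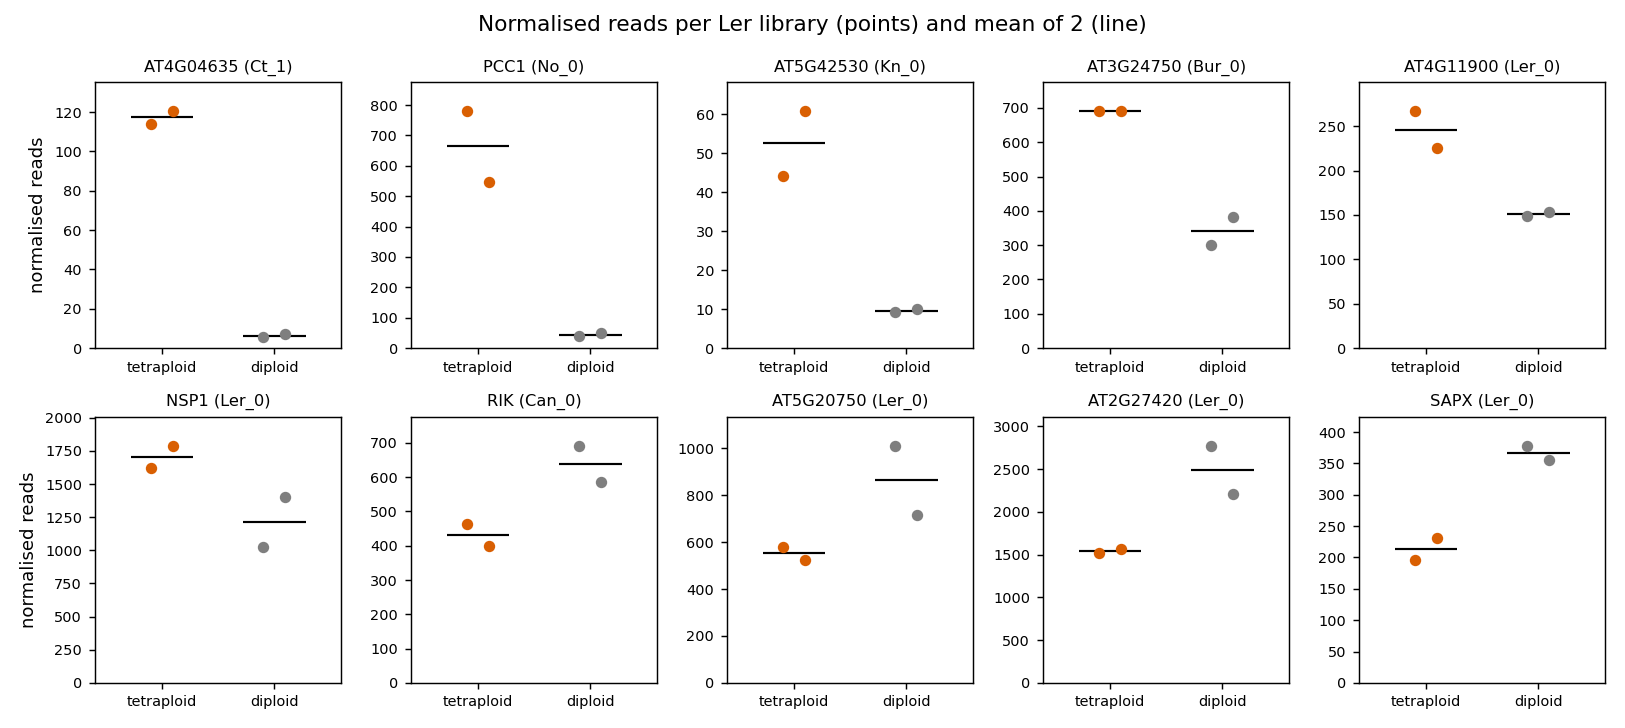
Normalised reads in each library (points) and the mean of both libraries (line) in tetraploid (left, orange) and diploid (right, grey) Ler for the 10 called joined identifiers, each on its own axis from 0, ordered by fold change. The first 6 panels are higher in tetraploid Ler and the last 4 lower, and in all 10 the tetraploid libraries do not overlap the diploid ones. The 10 were chosen by a test on these same libraries. Of all tested Ler rows with solved reads, 54.3% had no overlap either.

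The difference between the ploidy change in Ler and that in Col-0 was tested for the 244 pairs with a Wald test adjusted over all 21605 paired rows. It was called for 27 (11.1%), against 8.74% of all paired rows and 8.71% of plain ones, with 14 higher in Ler and 13 lower. In 21 of the 27 the Col-0 change was called by the authors, in 6 the Ler change, and in 2 both. With an empirical null 11 were called, and 14 among pairs whose mean count reached 100 in each table.

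Some of these loci were read in only one ploidy of Col-0. AT4G04402 had 160 and 136 reads in tetraploid and 0 and 0 in diploid Col-0, at least 111-fold higher against a floor of 3 counts over both diploid libraries, while neither of its Ler rows was called. AT3G24929 had 0 and 0 reads in tetraploid and 63 and 58 in diploid Col-0, at least 35.8-fold lower against a floor of 3 counts over both tetraploid libraries. In Ler its joined row (Col_0) had 15 and 19 reads in tetraploid and 15 and 11 in diploid libraries, and its plain row 42 and 43 in tetraploid and 49 and 42 in diploid. Both loci thus had reads in all 4 Ler libraries. AT4G16900 had 1 and 2 reads in tetraploid and 360 and 303 in diploid Col-0, a ratio of diploid over tetraploid of 196 (95% exact binomial interval 66.9 to 955), against 71 and 44 in tetraploid and 47 and 44 in diploid Ler (Wil_2). AT5G39770 had 147 and 108 reads in tetraploid and 3 and 0 in diploid Col-0, a ratio of tetraploid over diploid of 95.6 (interval 32.4 to 467), against 130 and 120 in tetraploid and 288 and 147 in diploid Ler (Ler_0, isoform form). Floors and intervals cover counting error only. The differences, Ler minus Col-0 on the log2 scale, were 8.05 ± 0.96 for AT4G16900 (adjusted p = 1.35e-14) and −7.26 ± 0.96 for AT5G39770 (adjusted p = 4.99e-12).

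With reads in both ploidies of both ecotypes, AT1G52990 (Bur_0) had 301 and 280 in tetraploid and 330 and 335 in diploid Ler, against 369 and 329 in tetraploid and 24 and 21 in diploid Col-0. Its difference was −4.22 ± 0.35 (adjusted p = 3.61e-30). Diploid Col-0 was the group that stood apart. AT5G49500 (Ct_1) had 22 and 13 in tetraploid and 29 and 18 in diploid Ler, against 256 and 232 in tetraploid and 53 and 53 in diploid Col-0, a difference of −2.69 ± 0.72 (adjusted p = 0.00373). AT1G26530 (Bur_0) had 46 and 38 in tetraploid and 54 and 63 in diploid Ler, against 77 and 96 in tetraploid and 30 and 19 in diploid Col-0, a difference of −2.39 ± 0.61 (adjusted p = 0.00229). In both the Col-0 tetraploid libraries were above the diploid ones and the Ler change was not called, and both differences missed the threshold with an empirical null (adjusted p = 0.287 and 0.239). AT4G11900 went opposite ways, with the Ler reads above and 25 and 39 in tetraploid and 286 and 213 in diploid Col-0, a difference of 3.49 ± 0.40 (adjusted p = 2.34e-16). AT2G27420 also had called changes of opposite sign, lower in tetraploid Ler and 0.56 ± 0.09 in the authors' deposited Col-0 table, a difference of −1.25 ± 0.15 (adjusted p = 1.42e-14).

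For 4 called Ler changes the Col-0 row was uncalled and the difference itself was called. PCC1 differed by 3.31 ± 0.49 (adjusted p = 1.15e-09) and AT5G42530 by 2.62 ± 0.62 (adjusted p = 6.76e-04). SAPX differed by −0.84 ± 0.21 (adjusted p = 0.00159) and RIK by −0.63 ± 0.20 (adjusted p = 0.024). With an empirical null the difference of PCC1 stayed called (adjusted p = 8.03e-04) and those of AT5G42530, SAPX and RIK did not (0.152, 0.21 and 0.546). SAPX was read less in Ler under this identifier than at its Col-0 locus, with a mean count of 290 in Ler and 3204 in Col-0 in the authors' deposited tables. For NSP1 and AT3G24750, called in the same direction in both ecotypes, the differences were 0.11 ± 0.17 (adjusted p = 0.879) and −0.41 ± 0.29 (adjusted p = 0.549).

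**Figure D4:**
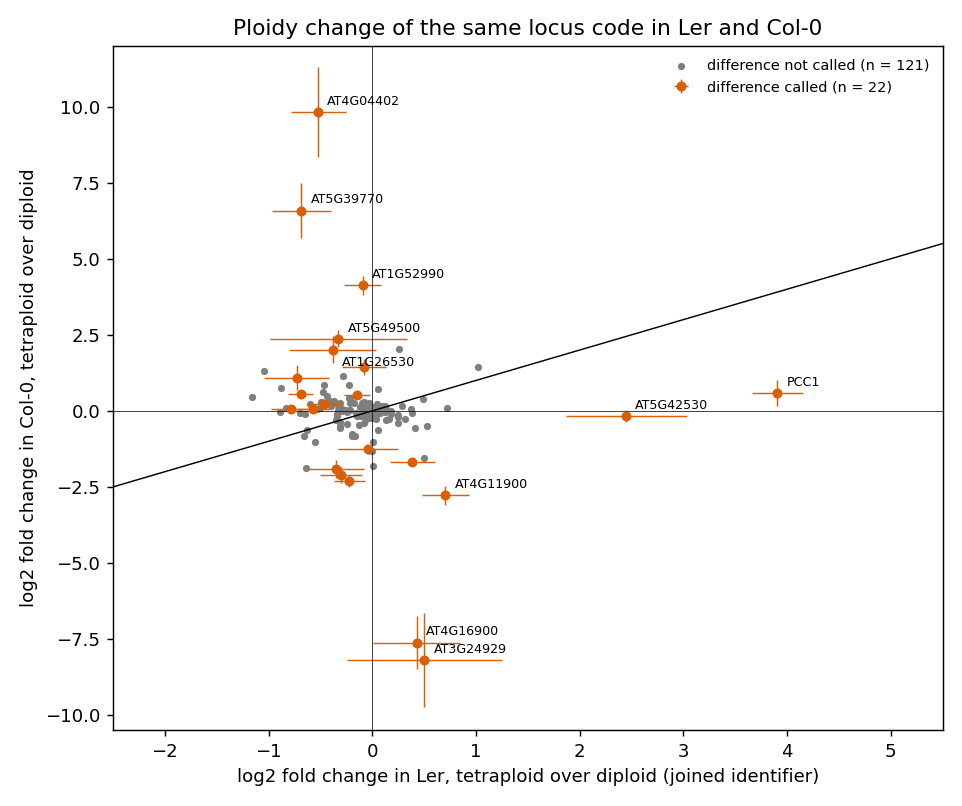
Log2 fold change, tetraploid over diploid, of joined identifiers in Ler (horizontal) and of the same locus code in Col-0 (vertical), for 143 pairs whose mean count reached 10 in each table, with the 22 called differences in orange, bars for the authors' standard errors and a line of equal change. Most orange points lie near 0 in Ler and far from 0 in Col-0, while PCC1 and AT5G42530 lie far to the right.

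The receptor-like kinases, which relay signals at the plasma membrane, were the largest family named by keyword. Only 4 of the 7 had an adjusted p in the authors' deposited Ler table, and none of these 4 was called, against 5.1% of all tested rows. The keywords missed other receptor-like kinases, such as GHR1 above, so this result covers the 7 genes and not the whole family. CRK30 (Rsch_4) had 228 and 199 reads in tetraploid and 225 and 259 in diploid Ler, against 247 and 253 in tetraploid and 89 and 117 in diploid Col-0, and its difference of −1.52 ± 0.34 was called (adjusted p = 2.29e-04). CRK28 (Bur_0) had 30 and 14 in tetraploid and 45 and 28 in diploid Ler, against 25 and 42 in tetraploid and 154 and 126 in diploid Col-0. CRK6 (Wil_2) had 3 and 2 in tetraploid and 0 and 0 in diploid Ler, against 60 and 58 in tetraploid and 347 and 204 in diploid Col-0. CRK28 and CRK6 were called lower in tetraploid Col-0 in the authors' deposited table, at −1.88 ± 0.38 and −2.03 ± 0.29, and their differences from Ler were not called (adjusted p = 0.344 and 0.229). CRK14 (Wil_2) had 15 and 12 in tetraploid and 3 and 0 in diploid Ler, not called in the authors' deposited table (adjusted p = 0.136), and CRK20 and CRK33 had under 10 reads in Ler. The co-receptor kinase SERK4 (Wil_2) had 14 and 9 reads in tetraploid and 11 and 17 in diploid Ler, and its plain row 65 and 46 in tetraploid and 61 and 57 in diploid, against 437 and 456 in tetraploid and 983 and 736 in diploid Col-0.

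The Col-0 rows of these loci differed between tetraploid and diploid plants more often than Col-0 rows at large. Of 222 such loci with an adjusted p in the authors' deposited Col-0 table, 60 were called (27%), against 15.4% of all tested Col-0 rows, with 27 higher and 33 lower in the tetraploid. Among those that reached a mean count of 100 the shares were 27.9% of 147 and 19.3% of 14384 nuclear loci. Called changes of at least 2-fold were found in 16.7% of the tested loci of joined identifiers and in 5.14% of tested nuclear loci. Of the Col-0 loci that had no Ler row of either form, 20.1% of 738 were called, and 27.5% of the 305 that reached a mean count of 100. Within the loci of joined identifiers, the called share was 30.9% of 97 whose joined row was more than 4-fold below Col-0 and 20.2% of 99 whose row was within 2-fold.

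Of the 198 loci of joined identifiers with at least 10 Col-0 reads and a mean count up to 2200, 8 (4.04%) had 0 reads in one ploidy of Col-0, against 1.08% of 18980 rows. In 6 the tetraploid had none and in 2 the diploid. Besides AT4G04402 and AT3G24929 these included AT5G27010, with 197 and 149 reads in tetraploid and 0 and 0 in diploid Col-0, at least 130-fold higher. AT1G29600 had 0 and 0 in tetraploid and 99 and 91 in diploid Col-0, at least 56.3-fold lower. Both had joined rows of under 10 reads in Ler, and AT5G44578, AT3G09330, AT5G45220 and PIPK10 completed the 8. In Ler, 0 of 178 joined identifiers with at least 10 reads had none in one ploidy, against 0.218% of 18372 rows.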

How the data were processed

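The data used are 2 of the authors' tables of DESeq2 results, tetraploid against diploid, one for Ler and one for Col-0, which hold no values per library; 16 ChIP-seq libraries of the series were not analysed here. HISAT2, Subread, DESeq2 and the build TAIR10 are named in the submitters' processing notes, without versions or settings. Per the file headers, each row has a mean normalised count (a signal averaged by the authors over 4 libraries), a deposited log2 fold change with its standard error, a Wald score, and the authors' p-value and adjusted p-value. A direction is not stated. Tetraploid over diploid was inferred because FLC is known to be higher in tetraploid Col-0 (2.63 ± 0.17 in the authors' deposited table) and diploid Col-0 is known for low ESP (6.94) and high ESM1 (−3.93).

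The lowest means repeat in 4 steps, each the worth of a single read in one library, and the size factors follow from them. Whole reads were then solved for every row with a mean up to 2200, with 1 solution each (21378 rows in Ler, 21508 in Col-0), and assigned to a ploidy so that they met the sign of the deposited fold change. Where both ploidies had reads, only solutions within a tolerance of 0.05 of the deposited log2 fold change were kept. At a mean of at least 10 the deposited values were met within 0.035, which follows from this rule and is no check of the reads. Because a table without counts per library had to be tested, the authors' adjusted p replaced the planned count model, and limma 3.58.1 (R 4.3.3) on log2(normalised reads + 1), at means of 10 to 2200, was added after the data were seen. Differences between ecotypes were tested with a two-sided Wald test and Benjamini-Hochberg adjustment over 21605 rows. The fitting steps were tested on simulated data.

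Named were all called joined identifiers, the 10 with the highest mean, up to 10 called differences by size at a mean of 10 or more in each table, up to 10 loci with several Ler rows and 5 without a Col-0 row. Other identifiers given with values, among them CRY3, SEC10, HDA9, TBP2, CKA2, COAB, the receptor-like kinases and the loci without reads in one ploidy of Col-0, fall outside this rule and were chosen after their values were seen. The identifiers, lists and rules were chosen with earlier results of these data known. Locus codes were matched to a RefSeq gene table of TAIR10.1 (263 of 264), used for names, gene types and gene order only.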

Additional observations from a re-analysis of the deposited data

Results flagged for a closer look

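For 13 named joined identifiers the ploidy change differed between Ler and Col-0 in the Wald test of the difference itself. The values are Ler minus Col-0 on the log2 scale. Those higher in Ler were AT3G24929 (8.7), AT4G16900 (8.05), AT4G11900 (3.49), PCC1 (3.31) and AT5G42530 (2.62). Those lower in Ler were AT4G04402 (−10.3), AT5G39770 (−7.26), AT1G52990 (−4.22), AT5G49500 (−2.69), AT1G26530 (−2.39), AT2G27420 (−1.25), SAPX (−0.838) and RIK (−0.626). The values of AT3G24929 and AT4G04402 rest on a Col-0 ploidy with 0 reads and are fitted values, not bounds. The authors' test called the Col-0 change alone in 7 of the 13, the Ler change alone in 4 and both in 2. This split reflects the naming rule, which took every called Ler row but only up to 10 called differences by size. Over all 27 called differences the Col-0 change was called in 21, the Ler change in 6 and both in 2.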

How the results depend on the processing

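The 10 calls in Ler became 6 with an empirical null, where the 4 lower calls became 2. Limma on the solved reads called 12 of 144 joined identifiers, when 10.1% of all 16597 rows were called. Leaving out 1 Ler library at a time, limma called from 7 to 30, with 4 to 9 higher and 2 to 21 lower. The 30 came without diploid library b and the 2 lower without tetraploid library b. PCC1, AT4G04635, AT3G24750, AT2G27420, AT5G42530 and SAPX were called under every alternative that could be run for them. The 27 called differences became 14 where the mean count reached 100 in each table and 11 with an empirical null. Limma called 29 of 125, when 20% of all 15872 rows were called. With 1 of the 8 libraries left out, the number called moved among all rows too. This held for the ploidy change in Ler as for the difference, so these moves were not confined to the joined identifiers. Shares over all rows were not computed for the empirical null or the filters by mean count. The share of pairs within 2-fold, 42.3%, was 53.3% over rows named Ler_0 alone. No direction was reversed where the main or the alternative value was called, and directions were not compared where neither was. Among the named identifiers, 298 of the alternative values for the ploidy change kept their side of the threshold, 14 fell short of it and 4 passed it, and the causes were not tested. For the difference from Col-0, 270 kept their side, 6 fell short and 5 passed it. No paired analysis was possible because the libraries solved from the mean carry no replicate number. The count-model refits with edgeR's scaling and DESeq2 were not run, since the tables hold no counts per library. A lone library left in a ploidy is assumed to vary like the others. With 85 of 270 joined identifiers under 10 reads, a ploidy change could not be detected for many of them at this depth, and levels in the 2 tables rest on separate normalisations and on rows that are named differently.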
